A study of Homo sapiens with 6 samples.

Results

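The genes described here load peptides onto MHC class I molecules, the surface proteins that show fragments of a cell's own proteins to CD8+ T cells. They are TAPBP, TAP1, TAP2, B2M, HLA-B, HLA-C, CALR, PDIA3 and ERAP1, and all probe sets annotated to any of these 9 genes were taken. A probe set is a group of array probes summarised into 1 value. The annotation names 9 of 9 among its 20152 genes, and the rule found 16 probe sets among 32319 in the table. Of these 10 are annotated to 1 of the genes alone and 6 to several genes. PDIA3, HLA-B and HLA-C have only probe sets of the second kind, so no value below belongs to any of these 3 genes alone. The list was picked because TAPBP was higher in cells with the SALL4 shRNA, so the differences of its probe sets between the groups are described with their errors and without p-values.

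RNA was measured on 6 Affymetrix arrays in the human cell line SNU-398, derived from a hepatocellular carcinoma and grown in RPMI medium with fetal bovine serum. The 3 control arrays come from cultures with a scrambled short hairpin RNA (shRNA) and the other 3 cultures received an shRNA that targets SALL4, an oncofetal zinc finger protein that regulates transcription in stem cells. The labels call the 3 samples of a group biological replicates without saying whether they are separate infections, and they name no further hairpin against SALL4 and no rescue. The comparison asks which transcripts differ with the SALL4 shRNA, and effects of lower SALL4 and other effects of the hairpin cannot be told apart.

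Class I molecules consist of a polymorphic heavy chain, such as HLA-B or HLA-C, and the invariant light chain beta-2-microglobulin, encoded by B2M. Peptides made by the proteasome are carried into the endoplasmic reticulum by the transporter TAP, a dimer of TAP1 and TAP2, and are trimmed there by the aminopeptidase ERAP1. Tapasin, encoded by TAPBP, tethers the empty heavy chain to TAP and, disulphide-linked to the oxidoreductase ERp57 (PDIA3) and helped by the lectin chaperone calreticulin (CALR), favours the binding of stable peptides. Transcription of several of these genes is known to respond to interferons, to NF-kB or to the coactivator NLRC5.

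SALL4 itself, the check of the labels, had intensities of 283, 264 and 335 on scrambled arrays and of 121, 119 and 117 on SALL4 shRNA arrays. The deposited intensity is on a linear scale with a floor at 10. The log2 difference was -1.30 ± 0.18 (SE, n = 3 each), and the limma adjusted p was 0.0204. That call was lost without scrambled replicate 1, 2 or 3 or SALL4 shRNA replicate 2, with adjusted p of 0.0641, 0.0569, 0.0590 and 0.0600, while the difference stayed between -1.38 and -1.20. Of the labelled cell type's markers, ALB (11.2 ± 1.39, SD, n = 3, scrambled) and AFP (14.97 ± 0.66) lay near the floor and the fetal proteoglycan gene GPC3 at 155 ± 18.1. Only 4 of the 11 probe sets of hepatocyte and hepatocellular carcinoma markers had a mean log2 intensity over 5, the filter of the fit (an intensity of 32). The leukocyte markers PTPRC and LYZ were at the floor on all 6 arrays. The summed intensity of the 7 leukocyte probe sets was between 195 and 234 on scrambled and between 214 and 312 on SALL4 shRNA arrays, and none of the 2 that entered the fit (CD68 and ITGAM) passed. Among fibroblast markers DCN fell by 1.25 on the log2 scale (limma adjusted p 0.0331), a call that was lost without any 1 array other than SALL4 shRNA replicate 3 (adjusted p 0.0702 to 0.105) and with no filter (0.120). COL3A1 was at -0.55, and COL1A1 and PDGFRB were at 0.37 and 0.32. None of these 3 passed. The summed intensity of the 4 such probe sets was 585 to 709 against 464 to 475. Its part in the results below was not tested. In these bulk samples a change in the share of cells and a change of RNA per cell cannot be told apart. On the second principal component (20.5% of the variance) scrambled replicate 3 and SALL4 shRNA replicate 2 stood apart, at -24.0 and -24.1 against 3.4 to 17.5, and differences without both arrays are given below.

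Promoter windows of the genes that differed most, and of TAP1 and CALR for comparison, are shown here because B2M and the probe sets of TAPBP and of HLA-B with HLA-C had positive differences together. Each runs from 250 bases before to 50 after the annotated start, from RefSeq, in which 8 of the 9 genes matched. RefSeq gives the reference haplotype, not that of SNU-398. Capitals mark matches on either strand to 5 motifs. The NF-kB-like motif was searched as GGG, 2 free bases, TT, 1 free base and CC. The interferon-type motif, like the interferon-stimulated response element, was searched as GAAA, 2 free bases and GAAA. The CCAAT box and TGACG, a core that CREB family factors bind, were searched as written. The ER stress response element was searched as CCAAT, 9 free bases and CCACG, so each match also contains a CCAAT box.
TAPBP promoter (GRCh38.p14 chr6:33314029-33314328, minus strand): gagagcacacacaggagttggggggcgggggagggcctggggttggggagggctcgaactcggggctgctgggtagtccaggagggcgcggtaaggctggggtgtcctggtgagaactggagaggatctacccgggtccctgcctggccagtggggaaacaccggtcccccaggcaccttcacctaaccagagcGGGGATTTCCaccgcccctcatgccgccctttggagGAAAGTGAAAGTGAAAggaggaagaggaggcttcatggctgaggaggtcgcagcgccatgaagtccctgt
B2M promoter (GRCh38.p14 chr15:44711267-44711566, plus strand): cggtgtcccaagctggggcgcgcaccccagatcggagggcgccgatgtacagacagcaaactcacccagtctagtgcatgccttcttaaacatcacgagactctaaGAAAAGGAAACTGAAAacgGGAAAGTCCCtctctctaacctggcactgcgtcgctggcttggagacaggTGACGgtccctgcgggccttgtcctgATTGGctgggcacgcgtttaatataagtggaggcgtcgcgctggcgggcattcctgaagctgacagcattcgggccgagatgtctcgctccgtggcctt
HLA-B promoter (GRCh38.p14 chr6:31357130-31357429, minus strand): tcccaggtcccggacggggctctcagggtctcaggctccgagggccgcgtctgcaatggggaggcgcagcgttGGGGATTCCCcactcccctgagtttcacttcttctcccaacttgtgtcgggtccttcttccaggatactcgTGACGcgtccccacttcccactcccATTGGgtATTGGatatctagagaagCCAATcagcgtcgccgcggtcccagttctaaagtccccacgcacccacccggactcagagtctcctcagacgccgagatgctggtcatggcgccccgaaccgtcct
HLA-C promoter (GRCh38.p14 chr6:31272043-31272342, minus strand): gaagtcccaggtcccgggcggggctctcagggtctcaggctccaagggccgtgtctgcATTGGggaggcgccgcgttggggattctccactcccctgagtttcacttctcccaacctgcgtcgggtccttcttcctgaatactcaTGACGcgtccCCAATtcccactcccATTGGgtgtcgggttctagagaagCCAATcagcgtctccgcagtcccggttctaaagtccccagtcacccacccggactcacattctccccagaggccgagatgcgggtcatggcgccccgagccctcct
TAP1 promoter (GRCh38.p14 chr6:32853655-32853954, minus strand): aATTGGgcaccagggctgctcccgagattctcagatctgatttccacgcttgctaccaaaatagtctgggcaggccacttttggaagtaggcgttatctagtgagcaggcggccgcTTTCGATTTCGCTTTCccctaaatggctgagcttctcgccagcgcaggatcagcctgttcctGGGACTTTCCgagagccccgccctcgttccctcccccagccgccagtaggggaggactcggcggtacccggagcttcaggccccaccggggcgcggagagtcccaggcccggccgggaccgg
CALR promoter (GRCh38.p14 chr19:12938359-12938658, plus strand): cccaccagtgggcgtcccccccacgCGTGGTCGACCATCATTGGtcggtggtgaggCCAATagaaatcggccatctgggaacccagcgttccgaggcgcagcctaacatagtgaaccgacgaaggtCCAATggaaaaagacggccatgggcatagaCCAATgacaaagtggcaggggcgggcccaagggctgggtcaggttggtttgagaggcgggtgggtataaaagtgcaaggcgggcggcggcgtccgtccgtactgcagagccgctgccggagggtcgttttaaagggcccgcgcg

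The TAPBP window held the NF-kB-like motif from 56 to 47 bases before the start and 2 overlapping interferon-type motifs from 20 to 5 bases before it. B2M and TAP1 held both kinds as well, each with 2 overlapping interferon-type matches. Of the windows not shown, that of TAP2 held an interferon-type match and an ERAP1 window held both kinds. The HLA-B and HLA-C windows held no exact interferon-type match. Both hold tttcacttct, which misses that motif on the opposite strand by its last base. The search counted exact matches only, so it does not show that such an element is absent. In HLA-B the NF-kB-like match was followed by the TGACG and CCAAT motifs of the class I upstream region. The HLA-C window is identical to that of HLA-B at 269 of 296 aligned bases (90.9%). It held the TGACG and CCAAT motifs and no exact match to the NF-kB-like motif. Where HLA-B has that match, HLA-C reads ggggattctc, which misses the motif by a single base. CALR held the ER stress element and 3 further CCAAT motifs outside it. Over the 10 windows of the 8 genes, the NF-kB-like and the interferon-type motif were each found in 5. They occur in 5.68% and 3.57% of the 35116 RefSeq promoter windows of this length. The CCAAT box was found in 6 of the 10 windows, the CREB-type core in 4 and the ER stress element in 1. Over the RefSeq windows these occur in 34.6%, 24.6% and 0.0769%. The motifs were chosen after the windows had been read, and a match is a string of letters and no evidence of binding.

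TAPBP, the peptide-loading chaperone tapasin, had a higher mean with the SALL4 shRNA in each of its 3 probe sets, by very different amounts. Probe set 8178977, the brightest, had intensities of 154, 352 and 284 on scrambled arrays and of 967, 608 and 874 on SALL4 shRNA arrays. The lowest SALL4 shRNA array lay well above the highest scrambled one, although scrambled replicate 1 was far below the other scrambled arrays. The means were 263 ± 100.3 and 816 ± 187 (SD, n = 3 each), and the log2 difference was 1.69 ± 0.30 (SE), or 3.22-fold. Probe set 8125713 was tighter, with 124, 135 and 104 against 297, 262 and 265, and its groups were also apart, at a log2 difference of 1.19 ± 0.18. Probe set 8180166 had 222, 255 and 232 against 392, 291 and 239. Here SALL4 shRNA replicate 3 lay inside the scrambled range, and the log2 difference was 0.35 ± 0.21.

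The annotation gives the 3 TAPBP probe sets the same 11 transcript accessions, so it does not say which transcripts each of them sees. Their log2 values averaged gave a difference of 1.08 ± 0.20 (SE). Without scrambled replicate 3 and SALL4 shRNA replicate 2 the differences were 1.98 (8178977), 1.12 (8125713) and 0.37 (8180166). Leaving out any 1 array kept all 3 above 0.

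**Figure D1:**
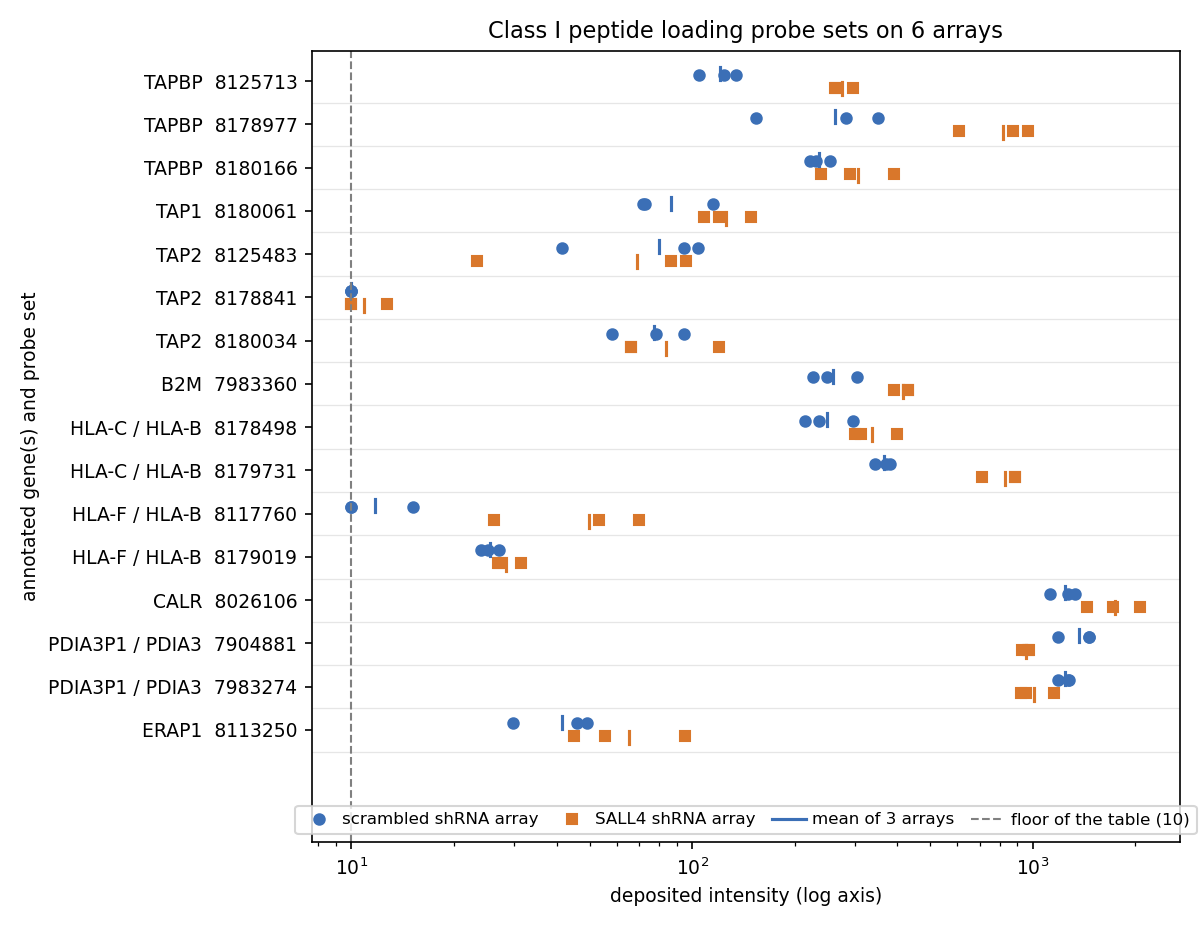
Deposited intensity (log axis) of the 16 probe sets on each array, with circles for the 3 scrambled and squares for the 3 SALL4 shRNA arrays, ticks for group means and a dashed line at the floor of 10. TAPBP 8178977 and 8125713, B2M and HLA-C / HLA-B 8179731 show separate groups, whereas the TAP2 groups overlap.

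The light chain and the heavy chains had higher means as well. Of their probe sets in the fit only HLA-C / HLA-B 8179731 passed the test, where 0.378% of all probe sets were called higher. That call was kept in 1 of the 6 fits without 1 array. B2M, whose product is part of every class I molecule, had intensities of 248, 304 and 226 on scrambled arrays and of 430, 429 and 391 with the SALL4 shRNA. All 3 SALL4 shRNA arrays exceeded all scrambled ones, and the log2 difference was 0.69 ± 0.19 (SE, n = 3 each), or 1.62-fold. Its single probe set gave 0.58 without the pair of arrays that stood apart.

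HLA-B and HLA-C, classical heavy chains with closely similar sequences, share their probe sets in this annotation. Probe set 8179731, annotated to both, had 344, 380 and 371 on scrambled arrays against 888, 886 and 708. The scrambled arrays lay close together and below all SALL4 shRNA arrays, and the log2 difference was 1.17 ± 0.18 (SE), or 2.26-fold. The other such probe set, 8178498, had 235, 297 and 215 against 301, 399 and 314. Its groups were apart by a narrow margin between scrambled replicate 2 and SALL4 shRNA replicate 1, with a log2 difference of 0.44 ± 0.20. Without scrambled replicate 3 and SALL4 shRNA replicate 2 it was 0.22, while 8179731 gave 1.13.

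A further pair of probe sets is annotated to HLA-B together with HLA-F, a non-classical heavy chain. Both were dim and did not pass the filter. Probe set 8117760 was listed at the floor of 10 on scrambled replicates 1 and 3 and at 15.2 on replicate 2, against 53.5, 26.3 and 69.8 with the SALL4 shRNA. The groups were apart, and the floor on the scrambled arrays leaves only an upper bound there. Probe set 8179019 had 25.2, 24.0 and 27.1 against 27.1, 26.9 and 31.4, with overlapping groups.

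The peptide transporter did not follow this pattern clearly. TAP1, the first TAP subunit, had 116, 73.0 and 71.7 on scrambled arrays and 108, 149 and 120 on SALL4 shRNA arrays. Scrambled replicate 1 lay inside the SALL4 shRNA range, and the log2 difference was 0.56 ± 0.23 (SE), or 0.31 without the pair of arrays that stood apart. TAP2, the partner subunit, had 94.5, 104 and 41.4 against 86.6, 23.4 and 96.0 by probe set 8125483. Its low values were on scrambled replicate 3 and SALL4 shRNA replicate 2, the arrays set apart by the second component, and the log2 difference of -0.36 ± 0.51 was smaller than its error. Without these arrays it was -0.12. Probe set 8180034 had 78.6, 94.9 and 58.0 against 66.2, 66.1 and 120, a difference of 0.09 ± 0.27. The third TAP2 probe set, 8178841, was at the floor on 5 of 6 arrays and did not enter the fit, although the annotation gives it the same 11 accessions as the others.

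**Figure D2:**
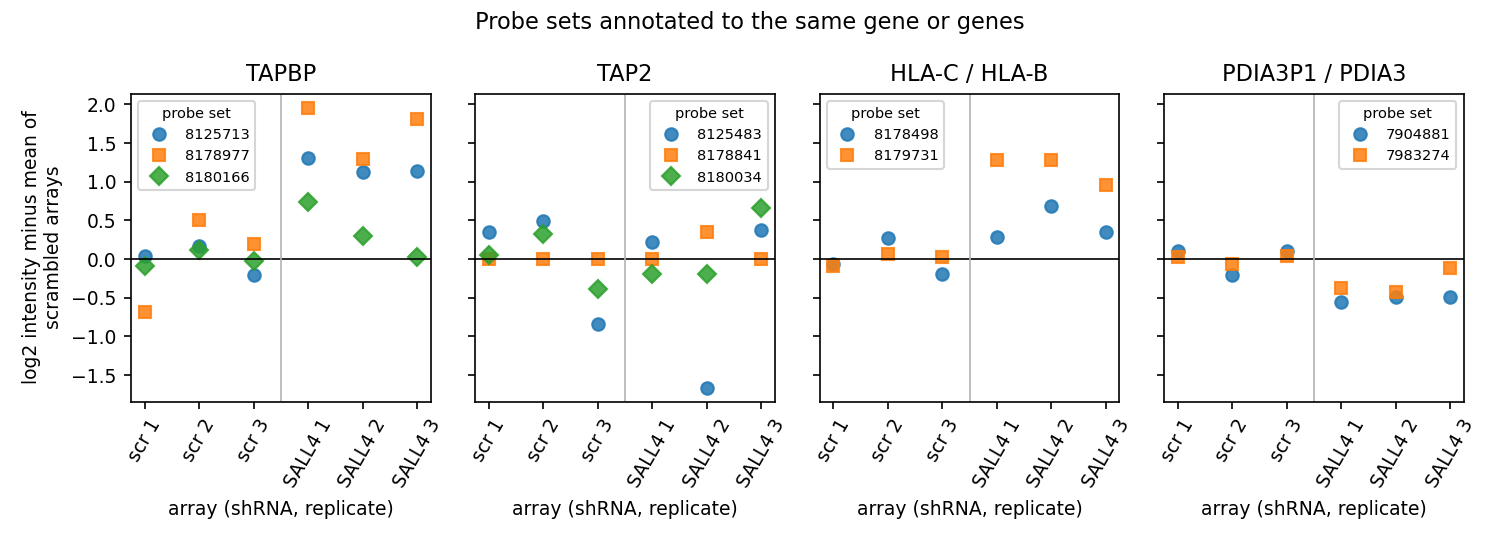
Log2 intensity of each array minus the mean of the scrambled arrays (zero line), for genes with several probe sets, with scrambled arrays left and SALL4 shRNA arrays right of the grey line. The TAPBP probe sets differ in size of difference (1.69, 1.19 and 0.35) and the HLA-C / HLA-B sets too (1.17 and 0.44), whereas both PDIA3P1 / PDIA3 sets lie below 0 on all SALL4 shRNA arrays.

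The chaperones had differences of opposite sign, and none of their 3 probe sets passed the test (1.17% of all probe sets did). CALR, the lectin chaperone of the loading complex and a calcium buffer of the endoplasmic reticulum, had 1271, 1329 and 1122 against 1444, 1722 and 2068. The groups were apart, and the log2 difference was 0.48 ± 0.20 (SE), or 1.40-fold. PDIA3, the oxidoreductase ERp57 that pairs with tapasin, shares both of its probe sets with the pseudogene PDIA3P1. Probe set 7904881 had 1465, 1184 and 1464 against 929, 972 and 970, a log2 difference of -0.51 ± 0.18. Probe set 7983274 had 1268, 1185 and 1281 against 958, 924 and 1151, a log2 difference of -0.31 ± 0.18. In both, every SALL4 shRNA array was below every scrambled array. They were the only member probe sets with separate groups and lower values. ERAP1, the trimming aminopeptidase, was dim, with 49.1, 46.0 and 29.8 against 45.04, 55.3 and 95.3. The groups overlapped, and the log2 difference of 0.61 ± 0.29 was 0.30 without SALL4 shRNA replicate 3.

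Of the 16 probe sets 13 entered the limma fit of 14817 annotated probe sets, and 10 of these had a positive and 3 a negative difference, with a median of 0.48 against 0.015 for all probe sets of the fit. The groups did not overlap in 6 that were higher and 2 that were lower, where 11.2% and 10.9% of all probe sets in the fit had separate groups in the respective direction. At an adjusted p under 0.05, 3 of the 13 were called higher (TAPBP 8178977, TAPBP 8125713 and HLA-C / HLA-B 8179731), where 0.378% of all probe sets were called higher, 0.796% lower and 1.17% either way. The list was picked on this contrast, for TAPBP itself, so the counts are a description and support nothing. The 174 calls over all probe sets (56 higher, 118 lower) became far fewer with 1 array less. There were 9, 0 and 16 calls without scrambled replicate 1, 2 or 3 and 53, 9 and 44 without SALL4 shRNA replicate 1, 2 or 3. For the count of 0, limma gave 2011 probe sets an unadjusted p under 0.05. Of the 3 called member probe sets only HLA-C / HLA-B 8179731 was called in any fit without 1 array, the fit without SALL4 shRNA replicate 3.

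**Figure D3:**
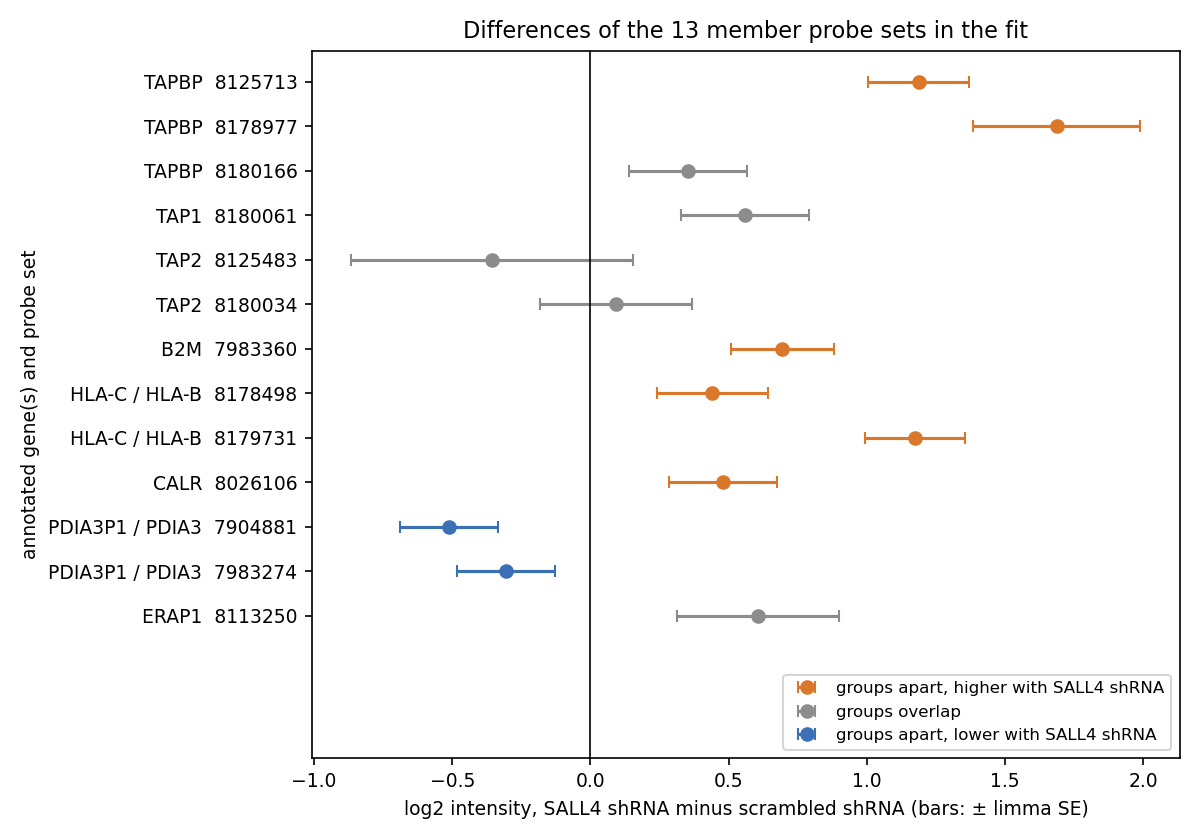
Log2 difference, SALL4 shRNA minus scrambled, with bars of ± 1 limma standard error (n = 3 arrays each) for the 13 probe sets that entered the fit, coloured by whether the groups overlap. The differences run from -0.51 for PDIA3P1 / PDIA3 to 1.69 for TAPBP, and 5 probe sets have overlapping groups.

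No gene of the other antigen presentation lists passed the test. Lists of 66 further genes of antigen presentation gave 65 probe sets of 57 genes, and 52 of these entered the fit. In limma 0 of the 52 passed (1.17% of all probe sets did), 8 had an unadjusted p under 0.05 (16.3% of all probe sets did), and 38 had a positive and 14 a negative difference, with a median of 0.151. MICB was called with limma's trend and robust settings (adjusted p 0.0487) and with an offset of 32 added to the intensities (0.0481), and by no other setting tried.

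Among class I-like heavy chains, MICB and MICA, stress-induced ligands of the natural killer receptor NKG2D, were at positive differences. MICB had a mean of 271 ± 8.97 on scrambled and of 455 ± 79.8 on SALL4 shRNA arrays (SD, n = 3 each). Its log2 difference was 0.73 ± 0.19 (SE; limma adjusted p 0.0929). The probe sets of MICA gave 0.68 ± 0.21 and 0.50 ± 0.22, with limma adjusted p of 0.137 and 0.290. Groups were apart in all 3 of these and in CD1D, a lipid-presenting molecule (0.33), which made 4 of the 6 probe sets of this list, where 11.2% of all probe sets in the fit had separate groups with higher values.

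The proteasome and trimming genes showed no common direction. PSME1, a subunit of the PA28 proteasome activator, was at 0.64 ± 0.22 (SE; limma adjusted p 0.186) with overlapping groups and PSME3, of another PA28 form, at -0.18 ± 0.18. Immunoproteasome gene PSMB9 was at 0.14 ± 0.18, and PSMB8 was too dim for the fit. The cytosolic peptidases BLMH and TPP2 were at -0.62 ± 0.18 and 0.34 ± 0.21.

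Of 15 probe sets of ER folding genes, 10 were positive and 5 negative, with a median of 0.115. P4HB, a protein disulphide isomerase of the same family as PDIA3, was at -0.55 ± 0.19 and -0.48 ± 0.27 (SE) by its 2 probe sets, and the ER protein gene ERP29 at 0.47 ± 0.20. CANX, the membrane-bound relative of calreticulin, was at 0.26 ± 0.19, and TAPBPL, the tapasin-related editor TAPBPR, at 0.23 ± 0.22. Both had overlapping groups.

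Of 15 regulator probe sets in the fit, 14 were positive and 1 negative, with a median of 0.179 against 0.015 over the fit. Among them RFXANK, a subunit of the RFX complex that binds MHC promoters, was at 0.69 ± 0.22 (SE, limma adjusted p 0.143). The interferon regulatory factor IRF2 was at 0.32 ± 0.19. NLRC5 was at 36.0 ± 4.74 and 36.1 ± 1.33 (SD, n = 3 each), which differ by 0.01 ± 0.18. IRF1, a class I activator named here after its values were seen, was below the filter at 18.1 ± 9.37 and 37.6 ± 14.04. Its arrays had 28.4, 16.0 and 10.0 (scrambled) against 28.9, 30.1 and 53.8, with scrambled replicate 3 at the floor. The groups were thus apart only by a narrow margin, where 11.2% of all probe sets in the fit were separate and higher. Of 15 probe sets of MHC class II genes, which act in antigen-presenting cells, 9 were too dim for the fit and the other 6 had overlapping groups. Of these the largest were HLA-DMA, a peptide editor (0.45 ± 0.23), and the class II coactivator gene CIITA (0.40 ± 0.19).

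**Figure D4:**
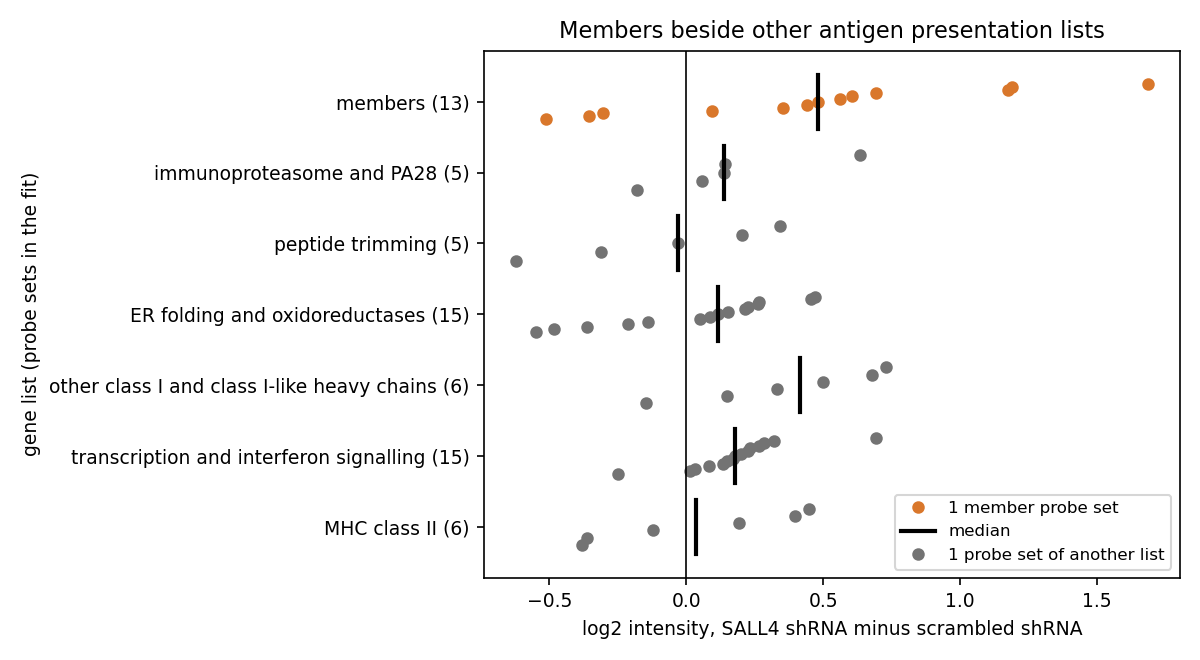
Log2 difference, SALL4 shRNA minus scrambled, of each probe set in the fit (points) and the median (bars), for the 13 member probe sets and 6 other lists of antigen presentation genes. The member median is 0.48, and the 52 other probe sets lie between -0.62 and 0.73. The 3 member probe sets above 1 are TAPBP 8178977, TAPBP 8125713 and HLA-C / HLA-B 8179731. The member list was picked on this contrast, for TAPBP, so its standing beside the other lists is a description only.

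Genes beside TAPBP on chromosome 6 were also compared. Of its 10 nearest protein-coding neighbours, 5 on each side in the GRCh38.p14 RefSeq gene order, 8 have probe sets of their own and 11 of 12 such probe sets entered the fit. In limma 0 of the 11 passed (1.17% of all probe sets did), 1 had an unadjusted p under 0.05 (16.3% of all did), and the groups overlapped in all 11 (11.2% of all were separate and higher, 10.9% separate and lower). The flanking genes RGL2, a Ral guanine nucleotide exchange factor, and ZBTB22, a zinc finger gene, were at -0.56 ± 0.42 and 0.24 ± 0.19 and at 0.55 ± 0.33 and 0.16 ± 0.22 (SE) by their 2 probe sets each. Of the 11, 10 were positive and 1 negative, where 7702 of the 14817 probe sets of the fit were positive. The median of the 11 was 0.221, against 0.015 over the fit. Around TAP1 and TAP2 0 of 7 probe sets passed, with 1 at an unadjusted p under 0.05, again near the shares of all probe sets (1.17% and 16.3%). BRD2, a bromodomain protein named after its values were seen, was the 1 with separate groups (0.40 ± 0.17).

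**Figure D5:**
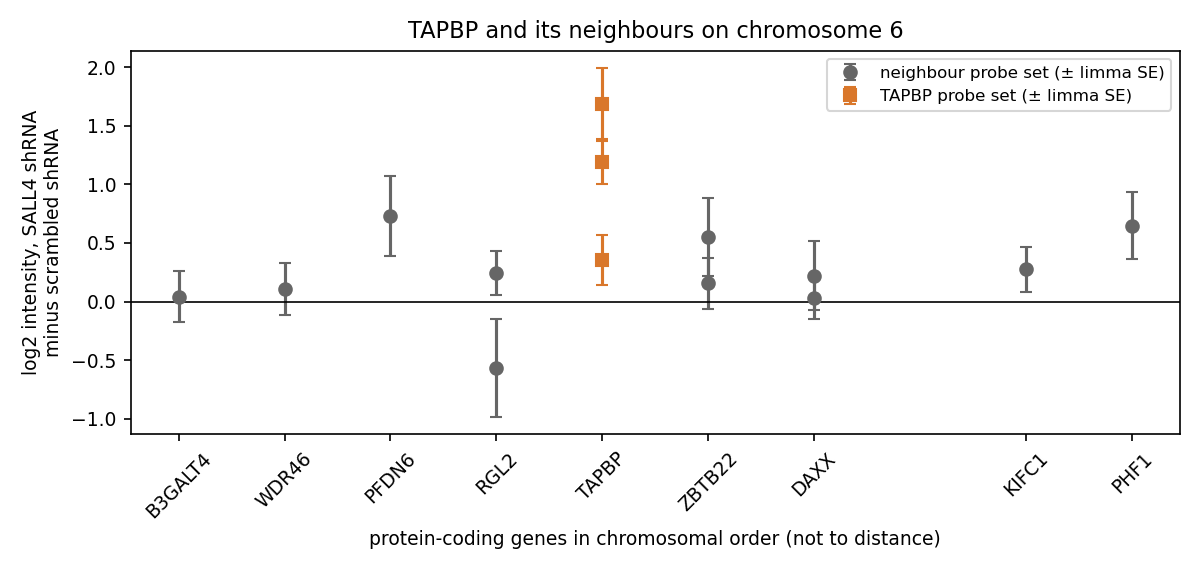
Log2 difference, SALL4 shRNA minus scrambled, ± 1 limma standard error, of probe sets of TAPBP (squares) and of its neighbours (circles) in chromosomal order, spaced by rank. The TAPBP probe sets lie at 1.69, 1.19 and 0.35, and the 11 neighbour probe sets run from -0.56 (RGL2) to 0.73 (PFDN6). TAPBP was picked because it was higher, so its standing among its neighbours is a description only.

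The profile of TAPBP 8178977 over the 6 arrays was compared with those of 13805 other single-gene probe sets in the fit by the root mean square difference of their centred log2 values. The nearest were WNK1 (0.346), BTBD9 (0.348), PIBF1 (0.382), ZNF280A (0.392) and TMBIM1 (0.395). WNK1 encodes a kinase of ion transport and TMBIM1 a membrane protein of the BAX inhibitor family. Of the other member probe sets in the fit, TAPBP 8125713 (0.473) and HLA-C / HLA-B 8179731 (0.480) came nearest, followed by B2M (0.631), and TAP2 8125483 lay farthest (1.27). All these distances include the difference between the groups by which TAPBP was chosen.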

How the data were processed

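Total RNA of 6 SNU-398 cultures was hybridised, per the labels, as biotinylated cRNA, 1 array a sample. The deposited values are intensity values on a linear scale, from RMA per the submitters' processing notes. For its version, later steps and the floor of 10 the sources used here give nothing. Array medians lie between 47.85 and 51.69, and 15.5% to 16.9% of values sit at the floor. Values at the floor are upper bounds, and differences that involve them can be understated. The number of arrays limits the precision.

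Log2 intensities were compared by limma (version 3.58.1, R 4.3.3) through lmFit and eBayes (two-sided, Benjamini-Hochberg, threshold 0.05). The fit used the 14817 of 20546 annotated probe sets whose mean log2 intensity over all 6 arrays was at least 5. The other 11773 probe sets are not listed in the platform annotation and were left out. Symbols were updated through Entrez identifiers, which matched for 19128 of 19158 single-gene probe sets. The code was tested on simulated data. With 3 against 3 arrays the smallest exact permutation p is 0.1, and p-values measure the spread between these samples only.

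The genes, lists and tests were chosen with earlier results of these data known. Named are all member probe sets, SALL4, any list gene or neighbour that passed, the 2 largest differences of each list, the genes flanking TAPBP and the 5 nearest profiles. Further genes are named as background. Alternatives were other filters, probe set choices, normalizations, an offset, limma settings, left-out arrays and a replicate block.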

Additional observations from a re-analysis of the deposited data

How the results depend on the processing

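The member differences kept their sign in all alternatives run for the 11 member probe sets of the fit outside TAP2. For TAPBP 8178977 they ranged from 1.08, the mean of its probe sets, to 1.98, for TAPBP 8125713 from 1.01, with 32 added to the intensities, to 1.27, for HLA-C / HLA-B 8179731 from 1.11 to 1.28 and for B2M from 0.58 to 0.82. TAP2 8125483 ranged from -0.78 to 0.30 and TAP2 8180034 from -0.19 to 0.26, each with the sign turned in some alternatives. The counts of calls moved much more. Over all probe sets limma called 174, against 0 with no filter (3150 at an unadjusted p under 0.05), 7 with all probe sets of the table, 450 with trend and robust settings, 414 with the offset of 32, 6 without both scrambled replicate 3 and SALL4 shRNA replicate 2, and 0 to 53 without any 1 array. The 3 calls among member probe sets became 0 with no filter, with all probe sets of the table and without that pair of arrays, 1 with 1 probe set a gene or the mean of a gene's probe sets (which leaves 6 genes), and 0 to 1 without any 1 array. Filtering on either group's mean added HLA-F / HLA-B 8117760, which passes that filter only through the group where it is high, so this added call says nothing, and the offset added B2M. The 0 calls among other class I pathway probe sets became 1 with trend and robust settings and 1 with the offset, and the 0 calls among neighbours stayed 0 in all alternatives. SALL4 kept its difference of -1.30 but lost the limma call with no filter (-1.30, adjusted p 0.0899), with all probe sets of the table (-1.30, 0.0544) and without that pair of arrays (-1.20, 0.0950). Without any 1 array it ranged from -1.38 to -1.20, with adjusted p from 0.0470 to 0.0641. With the replicate number as a block limma called 6 probe sets over all, 0 among members, and SALL4 at -1.30 had an adjusted p of 0.0698. Samples with the same number did not deviate together (correlations of 0.0167, -0.0888 and -0.0455), so the numbers do not pair them. The cause of these changes was not tested. Fits with fewer arrays or a block also have fewer degrees of freedom. Intensities at or near the floor limit what can be said of TAP2 8178841 and the HLA-F / HLA-B probe sets. For TAP2 8125483, TAP2 8180034 and ERAP1, none of which reached the floor, the spread between arrays limits it (pooled log2 SD 0.955, 0.432 and 0.482). ERAP1 was also dim.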
